A study of Homo sapiens with 6 samples.

Results

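The 10 genes described here encode the RNA exosome core and its nuclear exonuclease. They are the cap subunits EXOSC1, EXOSC2 and EXOSC3, the ring subunits EXOSC4 to EXOSC9, and EXOSC10. They were chosen by name, with no measured value in the rule but with earlier results of these data known. Counts and medians over them are therefore descriptions, not tests. All 10 were found among the 61853 entries of the count table. All 10 also passed the filter on low counts, which left 18040 genes for testing.

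RNA came from H9, an established human embryonic stem cell line, in 2 groups of 3 libraries. Day 0 is the start of differentiation, with H9 cells on Matrigel. Day 30 cells, labelled arcuate neurons after a nucleus of the hypothalamus, had been taken from KSR to N2 medium with SHH, purmorphamine, SB431542 and LDN-193189, then through N2 with B-27 and DAPT, with a replating in ROCK inhibitor between, and last through N2 with B-27 and BDNF. The libraries were made from total RNA after removal of ribosomal RNA, with a stranded kit. Both groups rest on 1 line, and whether a replicate is its own culture is not in the labels, so p-values here cover only the variation among these libraries, which may be technical.

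The exosome is a barrel of 9 proteins through which RNA is threaded 3′ end first. Its ring is built of 3 heterodimers, EXOSC4 with EXOSC9, EXOSC5 with EXOSC8 and EXOSC6 with EXOSC7, each related to the bacterial enzyme RNase PH, and 3 RNA-binding cap proteins sit on top. The human ring has no catalytic activity of its own. Cutting is done by the attached nucleases DIS3 and, in the nucleus and nucleolus, EXOSC10, which trims the 3′ end of 5.8S ribosomal RNA precursors. Inherited variants of EXOSC3, EXOSC8 and EXOSC9 cause disorders of cerebellum and motor neurons.

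Total counts ranged from 7178453 to 8794008 on day 0 and from 5013643 to 12924842 on day 30. Levels are given as CPM, counts scaled to a common library size with edgeR's TMM factors, and differences as log2 changes of day 30 against day 0. Means of CPM, ratios and shares carry the SD of 3 libraries, and log2 changes carry a standard error (SE). The labelled cell types were checked with marker lists. Of 7 pluripotency markers all 7 fell, with summed levels of 4688 to 5100 CPM on day 0 and 63.2 to 105 CPM on day 30. Of 6 markers of dividing cells all 6 fell, from 1565 to 1686 CPM down to 20.5 to 53.2 CPM, and of 7 neuronal markers all 7 rose, from 164 to 194 CPM up to 5405 to 6789 CPM. Of 7 hypothalamic and arcuate markers 5 rose, POMC and NKX2-1 among them, while AGRP and RAX held at most 3 counts in any library. Of 5 progenitor genes 3 were tested and 2 fell. Astroglial genes summed to 41.6 to 48.7 CPM on day 0 and 3.25 to 11.9 CPM on day 30, and oligodendroglial genes to 119 to 168 and 27.0 to 33.4 CPM. The 1 endodermal and the 1 endothelial gene tested both fell. SOX17, MOG and HES5 held no reads in any library. The 5 mesenchymal genes summed to 209 to 291 CPM on day 0 and to 154, 555 and 3487 CPM in day 30 replicates 1, 2 and 3. Most of this was COL1A1 and COL1A2, at 102 ± 14.3 and 158 ± 42.5 CPM on day 0. On day 30 COL1A1 held 82.7, 245 and 1717 CPM and COL1A2 69.8, 305 and 1732 CPM. TWIST1 went the other way, from 3.2 ± 3.0 to 0.38 ± 0.65 CPM. LUM held 0.51, 5.06 and 18.1 CPM on day 30. DCN held no reads on day 0 and 0.51, 0.38 and 19.1 CPM on day 30. Replicate 3 stood apart from the other day 30 libraries. Every call on the 10 genes held without day 30 replicate 3. Leaving it out keeps replicate 2, with 555 CPM of mesenchymal genes, and the difference in markers of dividing cells. The part of dividing and mesenchymal cells in the results was not tested. In bulk RNA, fewer cells of a type and less RNA per cell cannot be told apart.

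Of the 10 genes 9 fell and 1, EXOSC6, rose (edgeR quasi-likelihood test, Benjamini-Hochberg adjusted p under 0.05 over all genes tested). Among all genes tested, 76.6% passed by the same rule, 36.8% lower and 39.8% higher. The median log2 change of the 10 genes was −1.0, beside 0.08 over all genes tested. As the genes were chosen with earlier results known, this comparison is no test of the set. For 5 of them the fall was 2-fold or more, against 24.7% of all genes, and EXOSC6 was in turn among the 29.7% that were higher by 2-fold or more. Between the days, CPM ranges did not overlap for any of the 10, which held for 79.5% of all genes tested. In summed RNA, the 9 barrel subunits went from 389.9 ± 14.8 CPM to 209 ± 3.30 CPM (SD, n = 3), and without EXOSC6 from 356 ± 13.9 to 136 ± 3.11 CPM, or 38.3% of the day 0 level.

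**Figure D1:**
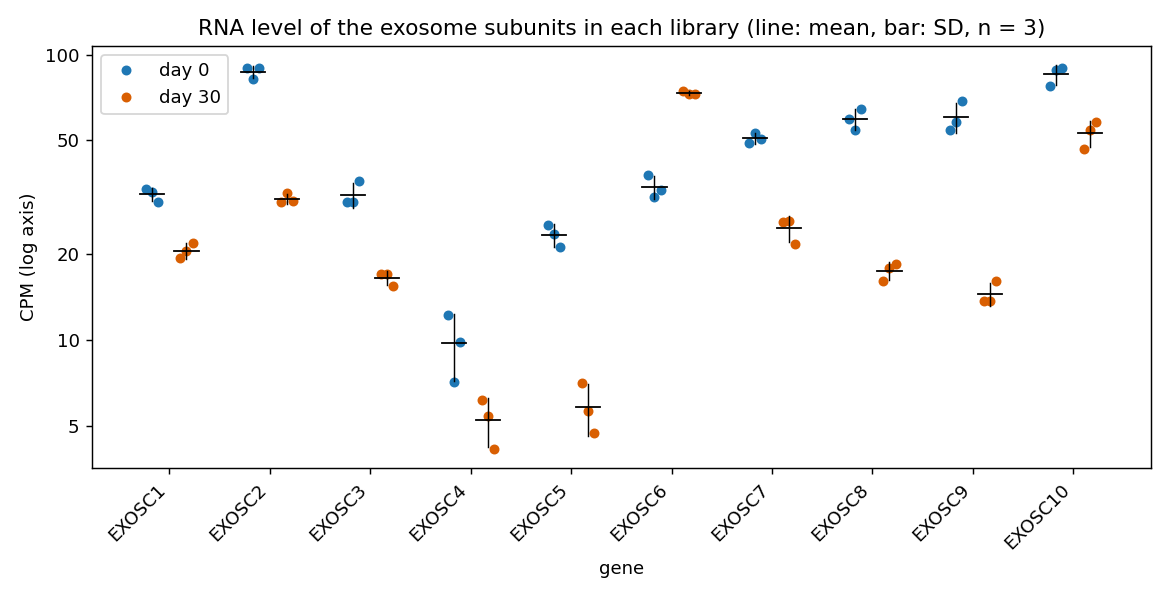
CPM on a log axis for each of the 10 genes in the 3 day 0 and 3 day 30 libraries (points), with the mean (line) and SD (bar). The day 30 points lie below the day 0 points for 9 genes and above them for EXOSC6 alone.

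Among the cap subunits, EXOSC2, a protein with RNA-binding S1 and KH domains, had the largest fall. Its level was 89.5, 82.4 and 89.3 CPM in the day 0 libraries and 30.6, 32.8 and 30.6 CPM on day 30. The groups lay far apart, and the fold change was −1.47 ± 0.11 in log2 (SE, adjusted p = 4.42e-07). EXOSC3, with the same domains, held 30.3, 30.5 and 35.9 CPM in the day 0 libraries and 17.0, 17.1 and 15.5 CPM in those of day 30. It fell by 0.96 on the log2 scale (SE 0.13, adjusted p = 6.88e-05). EXOSC1, which carries a zinc ribbon in place of the KH domain, had the smallest fall of the 9 that fell. Its values were 33.8, 33.1 and 30.5 CPM on day 0 and 19.3, 20.5 and 21.9 CPM on day 30. The estimate of −0.66 ± 0.13 in log2 (adjusted p = 0.000621) lies within its error of that of EXOSC10. All libraries of day 30 were below all of day 0 for each cap subunit. Their sum went from 152 ± 5.12 to 68.4 ± 1.76 CPM.

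In the first heterodimer of the ring, EXOSC9 had the largest fall of the 10 genes, though that of EXOSC5 was within its error. It measured 54.6, 58.0 and 68.5 CPM on day 0 and 13.7, 13.8 and 16.0 CPM on day 30. The lowest day 0 library was thus well above the highest day 30 library, and the log2 change was −2.07 ± 0.14 (adjusted p = 2.3e-07). Of all genes tested, 12.0% had a lower log2 change. Its partner EXOSC4, a short gene, had the fewest counts of the set, with 49 to 96 per library on day 0 and 22 to 72 on day 30. Its day 0 libraries held 12.2, 7.12 and 9.84 CPM and its day 30 libraries 6.17, 5.44 and 4.15 CPM, and the closest libraries of the 2 days lay near each other. The log2 change of EXOSC4 was −0.87 ± 0.26 (adjusted p = 0.00969), with adjusted p up to 0.035 over the alternatives tried, the least precise estimate of the 10.

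EXOSC5 and EXOSC8, the second heterodimer, both fell. EXOSC5 held 25.4, 23.5 and 21.2 CPM in the day 0 libraries and 7.10, 5.67 and 4.72 CPM in those of day 30. Its fold change was −1.98 ± 0.19 in log2 (adjusted p = 2.9e-06). EXOSC8 held 59.4, 54.5 and 64.2 CPM and later 16.1, 17.9 and 18.5 CPM, with a fold change of −1.77 ± 0.13 in log2 (adjusted p = 3.68e-07). For both, every day 30 library was far below every day 0 library.

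The third heterodimer split. EXOSC7 held 49.0, 53.2 and 50.5 CPM in the day 0 libraries and 25.9, 26.2 and 21.7 CPM in those of day 30. The groups were apart, with an estimate in log2 of −1.04 ± 0.12 (adjusted p = 2.03e-05). EXOSC6 moved the other way, from 38.0, 31.8 and 33.5 CPM on day 0 to 74.7, 72.5 and 72.5 CPM on day 30. The 3 day 30 libraries agreed closely and lay above every day 0 library. The log2 change was 1.09 ± 0.11 (adjusted p = 7.5e-06), and its adjusted p was at most 0.000151 over the alternatives. Within the whole transcriptome the size of this rise was not extreme, as 71.4% of genes tested had a lower log2 change.

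EXOSC10, the nuclear exonuclease, was among the least changed. Its level was 77.5, 88.1 and 89.8 CPM on day 0 and 46.8, 54.4 and 57.9 CPM on day 30. The log2 change was −0.69 ± 0.12 (adjusted p = 0.000381), and the groups did not overlap.

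The windows before the starts of the genes with the largest fall and the rise are shown because the 2 genes encode subunits of the same ring and moved in opposite directions. The bases run from 220 to 21 before the RefSeq start (GRCh38.p14), on the strand of the gene, at chr4:121801103-121801302 (plus strand) for EXOSC9 and chr16:70251961-70252160 (minus strand) for EXOSC6. Capitals mark matches to any of the motifs searched.
EXOSC9: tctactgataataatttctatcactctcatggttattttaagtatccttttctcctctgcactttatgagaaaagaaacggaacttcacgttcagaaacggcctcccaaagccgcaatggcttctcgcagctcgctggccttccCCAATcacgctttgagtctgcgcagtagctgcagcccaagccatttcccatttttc
EXOSC6: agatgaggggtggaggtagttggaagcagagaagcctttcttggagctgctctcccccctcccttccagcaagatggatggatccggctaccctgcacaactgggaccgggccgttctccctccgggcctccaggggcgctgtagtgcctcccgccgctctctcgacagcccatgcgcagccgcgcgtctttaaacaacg
The 8 motifs searched on both strands were the E-box CACGTG, the GC box GGGCGG, the ETS core CCGGAAG, the CCAAT box, the NRF1 core, the TATA box TATAAA, the cAMP response element TGACGTCA and the CHR element TTTGAA. None of these patterns contains another. EXOSC9 held a CCAAT box whose first base lies 76 before the start, and EXOSC6 held none of the 8. Over the 8 genes searched, CCAAT was found in 4 (EXOSC2, EXOSC5, EXOSC9 and EXOSC10), against 29.3% of all 27305 windows of this length. The GC box was found in 5, against 38.2%, and the E-box in EXOSC5 alone, against 5.4%. The other motifs were found in 0 of the 8, against 6.6% for the ETS core, 0.8% for NRF1, 9.5% for the TATA box, 1.5% for the cAMP response element and 11.1% for the CHR element. GC content was 46.0% before EXOSC9, the lowest of the 8, and 63.5% before EXOSC6, with a median of 58.0% over all windows. These are matches of letters, not binding sites, and the motifs were chosen with the levels already known. EXOSC1 and EXOSC4 were not searched.

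The gene models also differ. EXOSC6 (ENSG00000223496.3, chromosome 16, 70246778 to 70251930, hg38) is the only one of the 10 whose principal transcript has 1 exon, of 5153 bases. The others have from 3 exons, in EXOSC4, to 25, in EXOSC10 (ENSG00000171824.14, chromosome 1, 11066618 to 11099881). EXOSC9 (ENSG00000123737.13) lies on chromosome 4, 121801317 to 121817021, with 12 exons. Of the cap genes, EXOSC1 lies on chromosome 10 (97436142 to 97446017) and EXOSC2 and EXOSC3 on chromosome 9 (130693721 to 130704894 and 37766978 to 37801437). The other ring genes lie on chromosomes 8 (EXOSC4, 144078626 to 144080647), 19 (EXOSC5, 41386374 to 41397479), 3 (EXOSC7, 44975241 to 45036066) and 13 (EXOSC8, 36998816 to 37009613). These models come from GENCODE release 29. The authors' deposited table carries other version numbers of all 10 genes, so their exon sets may differ.

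Several of the genes share exon bases with a neighbour, and although the kit keeps strand, the setting used for counting is not given, so reads of the partners there may not have been told apart. EXOSC9 shares 254 exon bases, 5.4% of its exon length, with the 3′ end of CCNA2 on the opposite strand, the gene of the cell cycle cyclin A2. CCNA2 fell by 5.57 in log2, to 3.50 ± 0.90 CPM from 160 ± 20.3 CPM, and its part in the fall of EXOSC9 was not tested. EXOSC7 shares 13.6% of its exon length with CLEC3B, which had 4.33 ± 0.76 CPM on day 0 and 1.89 ± 0.69 CPM later. EXOSC8 shares 8.3% with SUPT20H, which fell by 0.41 on the log2 scale. EXOSC10 shares 36.6% with an antisense entry that held 2 counts over day 0 and 11 over day 30. EXOSC4 shares 19.5% with another antisense entry, which held 5 and 41 counts. EXOSC3 shares 5.0% with an unnamed coding entry of its own strand, at 39.8 ± 4.99 and 19.4 ± 1.89 CPM, and 3.2% with DCAF10, which rose by 0.85 in log2. The overlaps of EXOSC5 with BCKDHA and of EXOSC10 with EXOSC10-AS1 come to 1.3% and 2.7%. EXOSC4 contains the microRNA gene MIR6847, with 4 counts on each day. TRMT10B and ALG5 overlap EXOSC3 and EXOSC8 without a shared exon base, with log2 values of −0.01 and 0.43. The same holds for the coding entry ENSG00000255730 at EXOSC5, with −0.15, for ZDHHC3 at EXOSC7, and for RNU5B-3P at EXOSC7, which held no reads. EXOSC6 shares no exon base with another gene, but 2 genes of its own strand lie close. The alanyl-tRNA synthetase gene AARS1, 364 bases away, fell from 386 ± 20.7 to 211 ± 10.2 CPM, and the pseudogene SMG1P7, 167 bases away, rose from 10.2 ± 2.39 to 20.6 ± 2.56 CPM, or by 1.0 ± 0.20 in log2 (adjusted p = 0.000816). SMG1P7 has near-identical copies, so its own value is uncertain.

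For 3 of the 10 genes the principal start lies within 1000 bases of the start of a coding gene on the opposite strand, as it does for 10.6% of 19951 coding genes. ZDHHC16, whose start is 114 bases from that of EXOSC1, had a log2 value of 0.07 ± 0.14 (adjusted p = 0.674). BCKDHA, 19 bases from EXOSC5, had −0.29 ± 0.21 (adjusted p = 0.232), beside −1.98 for EXOSC5. ZDHHC3, 53 bases from EXOSC7, fell by 0.72 (SE 0.12, adjusted p = 0.000251). The differences between partners and exosome genes were not tested.

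The levels of the subunit RNAs were also set against each other within a library. Relative to the mean log2 CPM of the other 9, EXOSC6 stood at −0.12, −0.29 and −0.33 on day 0 and at 2.12, 2.07 and 2.14 on day 30. In CPM, which is not scaled to gene length, it passed from slightly below the mean of the others to above it. A fixed gene length does not alter this shift of 2.36, but it does alter the positions. EXOSC10 shifted by 0.39 and EXOSC1 by 0.42, both without overlap between the days. EXOSC2, EXOSC8, EXOSC5 and EXOSC9 shifted by −0.48, −0.80, −1.05 and −1.12, also without overlap. A share over all genes was not computed for this measure. For CPM itself, ranges of the days did not overlap in 79.5% of all genes tested, so lack of overlap is common here. EXOSC3, EXOSC4 and EXOSC7 had shifts of 0.09, 0.21 and −0.01 with overlapping ranges. These small shifts rest on single libraries. That of EXOSC3 was 0.02 without day 0 replicate 1 and 0.16 without day 0 replicate 3. That of EXOSC4 was 0.02 without day 0 replicate 2, 0.08 without day 30 replicate 1, 0.35 without day 30 replicate 3 and 0.39 without day 0 replicate 1. The sign of that of EXOSC7 turned without day 0 replicate 2 or day 30 replicate 3. The shifts of the 10 genes depend on each other, since a rise of one subunit lowers the relative level of the rest.

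**Figure D2:**
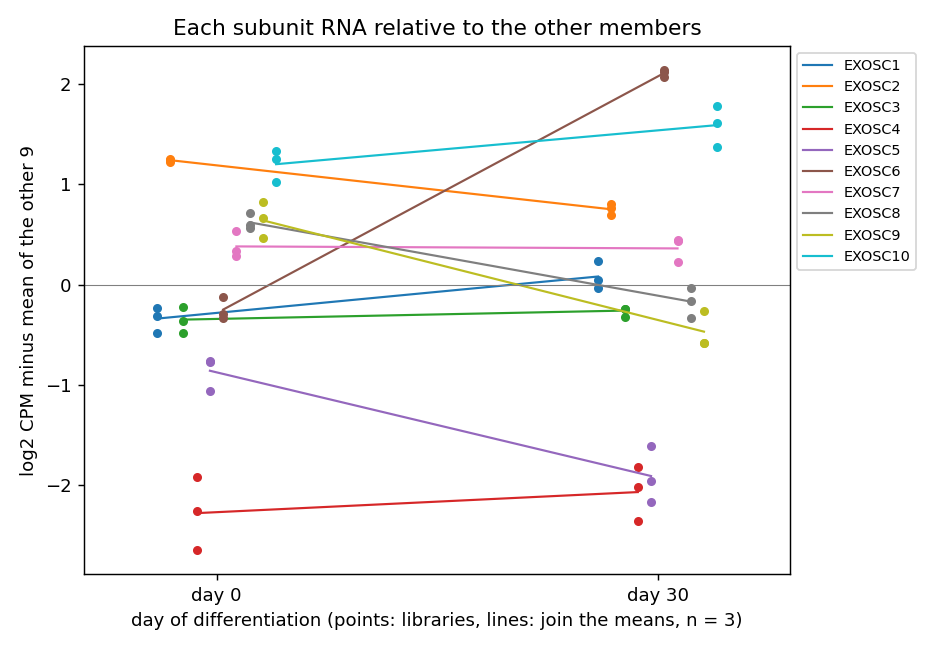
Log2 CPM of each subunit minus the mean log2 CPM of the other 9 in the same library, for 3 libraries per day (points), with lines joining the means of the days. EXOSC6 goes from −0.25 to 2.11 in mean, and EXOSC5 and EXOSC9 go down by 1.05 and 1.12.

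The ratio of 2 subunit RNAs was taken within each library, and all 45 pairs were compared. The ratio differed without overlap between the days in 36 pairs, including all 9 pairs with EXOSC6. Over all pairs of the genes tested the same held for 80.0%, so this count is at the background. With 3 libraries a day the 2-sided exact permutation test cannot go below p = 0.1, which each of these reached. Adjusted over the 45 pairs, this exact p becomes p = 0.125, so none could pass the threshold. Within the heterodimers, the log2 ratio of EXOSC6 to EXOSC7 went from −0.56 ± 0.19 to 1.57 ± 0.14 (SD, n = 3), a difference of 2.13. That of EXOSC4 to EXOSC9 went from −2.63 ± 0.44 to −1.44 ± 0.40, a difference of 1.19. For EXOSC5 to EXOSC8 the ratio was −1.34 ± 0.22 and −1.56 ± 0.39, a difference of −0.23 with overlapping ranges (exact permutation p = 0.6). The largest difference of any pair was that of EXOSC6 to EXOSC9, from −0.80 ± 0.26 to 2.32 ± 0.14. The ratio of EXOSC1 to EXOSC10 was −1.38 ± 0.18 and −1.35 ± 0.08, which overlapped (exact permutation p = 0.8).

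Levels of different genes can be set side by side only per length. In CPM per kilobase of merged exons, EXOSC2 was highest on day 0, at 20.5 ± 0.96, apart from EXOSC8 at 16.4 ± 1.34. From EXOSC8 through EXOSC5, EXOSC10, EXOSC9, EXOSC7 and EXOSC3 to EXOSC1 (9.71 ± 0.52) each gene overlapped the next in order. EXOSC4, at 6.92 ± 1.82, and EXOSC6, at 6.68 ± 0.62, were lowest and overlapped each other. On day 30 EXOSC6 was highest, at 14.2 ± 0.25 CPM per kilobase, apart from EXOSC10 at 8.84 ± 0.95, EXOSC2 at 7.38 ± 0.30 and EXOSC1 at 6.15 ± 0.38 in that order. EXOSC9 was last, at 3.08 ± 0.29, and overlapped EXOSC4. As a share of the summed CPM per kilobase of the 9 barrel subunits, EXOSC6 held 6.02% ± 0.42 on day 0 and 26.2% ± 0.61 on day 30. The order depends on the length used. With the length of the principal transcript, which is far shorter than the merged exons for most of the genes, EXOSC6 was still lowest on day 0, but on day 30 it was sixth of 10, overlapping EXOSC8 just above it. EXOSC7 was then highest at 23.3 ± 2.39, overlapping EXOSC1 at 22.3 ± 1.38. By this length the share of EXOSC6 was 2.45% ± 0.21 on day 0 and 11.9% ± 0.29 on day 30.

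**Figure D3:**
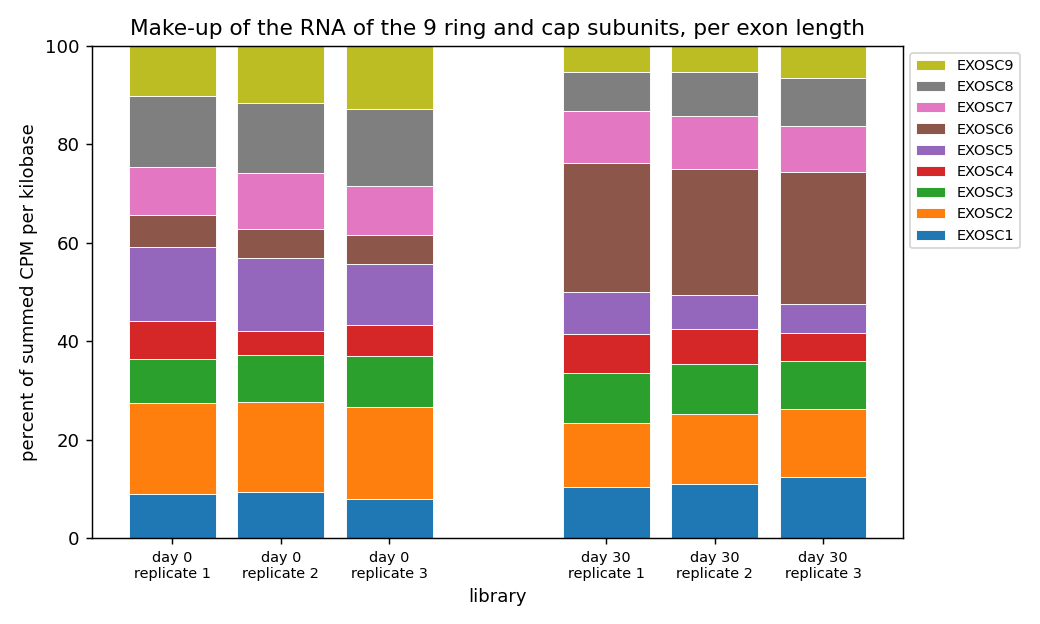
Percent of the summed CPM per kilobase of merged exons held by each of the 9 barrel subunits in each library. EXOSC6 holds 5.73% to 6.51% in the day 0 libraries and 25.6% to 26.8% in the day 30 libraries.

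The partners of the barrel are given for comparison. Of the other exosome nucleases, both fell by a small amount. By the same rule 36.8% of all genes tested fell. DIS3, the main processive nuclease, held 75.9, 96.8 and 102 CPM in the day 0 libraries and 73.1, 79.6 and 55.1 CPM in those of day 30, with overlapping ranges. Its log2 change was −0.40 ± 0.16 (adjusted p = 0.0413), and over the alternatives it ranged from −0.55 to −0.24, with adjusted p from 0.0103 to 0.141. The call was lost on leaving out day 0 replicate 2 or 3 or day 30 replicate 3. DIS3L, its cytoplasmic relative, went from 59.3 ± 6.65 to 43.4 ± 5.87 CPM, or −0.44 ± 0.14 in log2 (adjusted p = 0.0128).

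Of 14 nuclear cofactors 10 fell and 1 rose, with a median of −0.56. Over all genes tested, 36.8% fell and 39.8% rose, or 76.6% that passed in either direction. The largest fall was that of NOP53, a pre-60S factor that brings the helicase MTREX to the precursor, from 93.4 ± 14.8 to 19.5 ± 3.79 CPM (−2.24 ± 0.17 in log2, adjusted p = 5.6e-07). MTREX itself went from 162 ± 10.4 to 77.2 ± 3.06 CPM. RBM7, of the complex that targets nuclear exosome substrates (NEXT), fell by 1.64. C1D and MPHOSPH6, small proteins of the nuclear exosome, fell by 0.51 and 0.68. The call of C1D was lost on leaving out day 0 replicate 3 or day 30 replicate 2 or 3. ZCCHC8, the scaffold of NEXT, had −0.43, and its call was lost on leaving out day 0 replicate 3 or day 30 replicate 1 or 2, with total counts only and with the stricter filter. The poly(A) polymerases TENT4A and TENT4B, which tag RNA for the exosome, had log2 values of 0.17 and −0.07 and did not pass, nor did ZFC3H1 at 0.10. The sign of TENT4B turned with total counts only and with the stricter filter. NRDE2, which binds and restrains MTREX, had 21.0 ± 0.67 CPM on day 0 and 27.1 ± 1.24 CPM on day 30, or 0.37 ± 0.12 in log2 (adjusted p = 0.0196, from 0.00658 to 0.0937 over the alternatives). Its call was lost on leaving out day 0 replicate 2 or day 30 replicate 1 or 2.

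Of 5 cap-binding adaptors, which link capped nuclear RNA to the exosome, 4 fell, with a median of −0.75. The share of all genes tested that fell was 36.8%. SRRT had the largest fall, from 101 ± 6.41 to 43.7 ± 4.32 CPM (−1.21 ± 0.12 in log2, adjusted p = 3.94e-06), and NCBP3 had 0.17 ± 0.10 (adjusted p = 0.159). NCBP3 passed with total counts only and with the stricter filter. The cytoplasmic Ski helicase complex feeds messenger RNA into the barrel. Of its 4 listed genes 3 were tested and 1, HBS1L, fell, by 0.57, against 36.8% of all genes tested. HBS1L was listed as an adaptor, but counts are per gene and do not separate its transcripts. SKIC3 had a log2 value of 0.21 ± 0.12 (adjusted p = 0.134), which passed under the same 2 settings, and SKIC8 one of −0.24 ± 0.11 (adjusted p = 0.0751). SKIC2 held 1 count in all and was not tested. Whether so low a count reflects the RNA or the counting, whose program is not given, was not tested.

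Of 10 other exonucleases tested, 7 fell and 2 rose, with a median of −0.99. For all genes tested these shares were 36.8% and 39.8%. Those that fell included the mitochondrial REXO2, with the largest fall at −1.66 ± 0.14, and the nuclear 5′ to 3′ exonuclease XRN2, from 248.6 ± 26.7 to 95.6 ± 4.48 CPM. The 2 that rose act in the cytoplasm, but so does DIS3L of the exosome nucleases, which fell (−0.44 in log2). XRN1, the 5′ to 3′ exonuclease of messenger RNA decay, went from 59.3 ± 6.02 to 115 ± 9.70 CPM (0.96 ± 0.12 in log2, adjusted p = 2.8e-05). DIS3L2, a relative of DIS3 that works without the exosome, went from 23.1 ± 3.54 to 46.0 ± 6.82 CPM (0.99 ± 0.16 in log2, adjusted p = 0.000184). USB1 had 0.25 ± 0.16 (adjusted p = 0.159). PARN held at most 7 counts in a library and was not tested. As for SKIC2, so few counts need not mean little RNA.

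**Figure D4:**
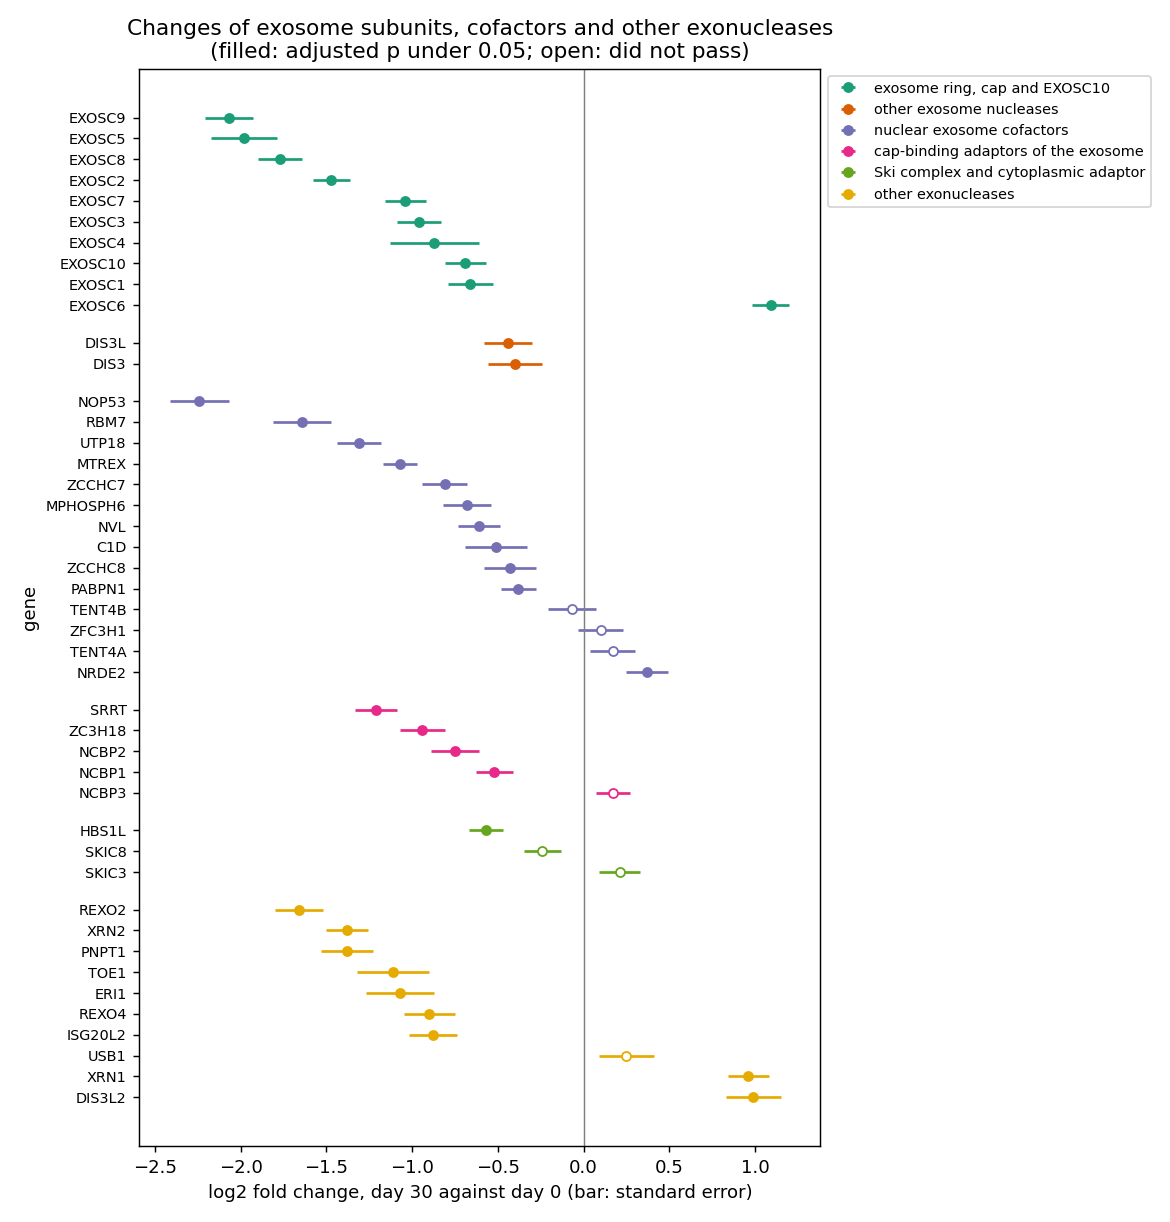
Log2 fold change of day 30 against day 0 with its standard error for the 10 exosome genes and for the tested genes of the related lists (filled points passed the test, open points did not). Among the exosome genes EXOSC6 is the only point right of 0.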

How the data were processed

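The authors deposited expected counts, that is, reads per gene that hold fractions of reads, and 92.6% of the values are whole numbers. The unit was read from the values. Per the submitters' processing notes, the genome build was hg38 and FastQC 0.11.9 was run. The aligner, counting program, annotation release and strand setting of the counting were not given in the sources used here. Values were rounded to whole numbers before testing, since the plan assumed raw counts. Columns of values not used numbered 0.

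Symbols were matched by gene ID, and lengths, exons and neighbours came from GENCODE release 29, which covers 94.3% of entries. Promoter windows came from RefSeq (GRCh38.p14), which held 8 of the 10 genes.

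Day 30 was compared with day 0 in R 4.3.3 with edgeR 4.0.16 (quasi-likelihood test, TMM, filterByExpr) over 18040 genes, with a biological coefficient of variation of 0.153. Standard errors are approximate, the absolute log2 change divided by the square root of F. Log2 CPM used a prior count of 2. The test was checked on simulated counts in which few genes changed, as many up as down. In the data 76.6% of genes passed, so that check does not cover TMM scaling when most genes differ. Alternatives used DESeq2 1.42.0 and limma 3.58.1, other scalings, filters, no rounding, a replicate block and each library left out. Transcript length, and the alternatives for pairs of subunits, were added after seeing the data. So was the count over all pairs of genes tested.

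The genes and lists were chosen with earlier results of these data known. The rule for names took all 10 genes, the genes that overlap them, from each related list the largest fall, the largest rise that passed and every member that did not pass, the 3 coding genes most like EXOSC6 and EXOSC9, and sequences of those 2 genes. DIS3, MTREX, RBM7, C1D, MPHOSPH6, ZCCHC8, XRN1, XRN2, SMG1P7, AARS1, the genes with a start on the opposite strand and the motifs were chosen after their values were seen.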

Additional observations from a re-analysis of the deposited data

How the results depend on the processing

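Each of the 10 exosome genes kept its direction and its side of the threshold under all 14 alternatives to the edgeR test. Their log2 changes ranged from −0.57 to −0.72 for EXOSC1, from −1.97 to −2.17 for EXOSC9 and from 1.01 to 1.18 for EXOSC6. Scaling by total counts only moved the median of all genes by 0.09. The number of other exosome nucleases that fell, 2, was 1 with total counts only, with the stricter filter and with the replicate block, and from 1 to 2 with 1 library left out. The number of nuclear cofactors that rose, 1, was 0 with no filter, with DESeq2 and with the replicate block, and from 0 to 1 with 1 library left out. The number of cap-binding adaptors that rose, 0, and that of the Ski complex, 0, were each 1 with total counts only and with the stricter filter. The stricter filter left 13382 genes, and the median shift of their log2 changes from the main test was 0.08. The cause of the moved counts was not tested. The shift of EXOSC7 relative to the other members, −0.01, ranged from −0.06 to 0.06 with 1 library left out, and its sign turned without day 0 replicate 2 and without day 30 replicate 3, where it was 0.06.

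Whether libraries of the same replicate number are paired is not in the labels. Their deviations from the means of the days correlated at 0.07, 0 and −0.05. Values near 0 show no shared deviation but cannot exclude a shared culture or batch. With the replicate block 9 of the 10 genes fell and EXOSC6 rose by 1.09, and over all genes 6415 were lower and 6921 higher, against 6641 and 7186 without it. Depth limits EXOSC4 most, with 22 counts in its lowest library.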

Other observations

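Among the 8437 coding genes that reached 4 in mean log2 CPM, those whose log2 CPM, centred over the 6 libraries, lay nearest to that of EXOSC6 were KMT2E, ASH1L and URGCP. KMT2E and ASH1L encode SET-domain chromatin proteins. Their root mean square distances from EXOSC6 were 0.042, 0.045 and 0.055, and their log2 changes were 1.11, 1.03 and 1.1. Nearest to EXOSC9 were DCAF13 and NOC3L, which act in ribosome assembly, and ECI2, an enzyme of fatty acid oxidation. Their distances were 0.049, 0.068 and 0.065, and their log2 changes −2.05, −2.12 and −2.06. Since the 6 libraries form 2 groups, this measure mainly ranks genes by the difference between the days.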
